A study of Mus musculus with 7 samples.

Results

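A group of 10 genes was followed in granulosa cell-depleted ovaries, *Gpt2*, *Susd3*, *Jcad*, *Cited1*, *Arl4d*, *Abhd2*, *Tmem144*, *Pdlim4*, *Amigo2* and *Glul*. They stand in a list of 154 genes that differed from wildtype (WT) in progesterone receptor (PGR) knockout (KO) granulosa cells. Listed genes also differed in granulosa cells that lacked only the A isoform of PGR. This list, here called the granulosa list, was used only for its symbols and directions. The 10 genes were chosen from it because they were lower in KO than in WT in the stromal libraries described here. They are 10 of 52230 genes in these libraries and 10 of the 19233 that had enough reads to test. The difference between genotypes chose them, so their fold changes are given as a description, with no p-value, and any count of calls among them follows from the choice. The stromal RNA came from PRKO mice carrying the Pgrtm1Bwo allele, a germline null, so that the granulosa cells as well as the stroma of a KO ovary lack PGR. The 4 WT libraries (PGR +/+) and the 3 KO libraries (PGR -/-) came from littermates, with each library made from the pooled tissue of 3 mice. The mice were aged 21 to 27 days by the sample labels (21 to 25 days in the series text), received 5 IU eCG (PMSG in the labels) and, 44 h later, 5 IU hCG, and their ovaries were taken 8 h post-hCG. Ovaries were punctured repeatedly to release the granulosa cells, and the whole remaining ovary was used, so the tissue also holds theca, vessels, immune cells, oocytes and whatever granulosa cells stayed behind.

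PGR is a nuclear receptor that is switched on in mural granulosa cells by the LH surge, for which injected hCG stands in, and mice without it do not release their oocytes because the follicle wall does not rupture. It binds DNA as a dimer and also acts with other transcription factors at promoters and enhancers. The 10 genes encode enzymes of amino acid and lipid metabolism, proteins of the actin cytoskeleton and of cell contacts, a small GTPase, a transcription cofactor and 2 membrane proteins with less well known roles. Some of them are also used outside the follicle, *Jcad* in endothelial cells and *Glul* in many tissues.

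*Pgr*, the disrupted gene, was measured at 19.5, 31.0, 21.5 and 16.9 CPM in WT 1 to 4 and at 6.13, 6.52 and 7.56 CPM in KO 2 to 4. CPM are counts of reads scaled to a common library size by the TMM method. The groups did not overlap, and the KO mean was 30.3% of the WT mean, so the libraries carry the difference that their labels state. Totals of 47.4 to 63.4 M reads were assigned per library. Over the 19233 tested genes, log2 CPM values of any pair of libraries were correlated with a Pearson r between 0.985 and 0.990. The granulosa marker *Inha*, which encodes the inhibin alpha subunit, was among the most abundant transcripts, at a WT mean of 2034 TPM (a level corrected for transcript length and library size), so the tissue named as depleted still held granulosa cell RNA.

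The 3 enzymes among the 10 genes included the most abundant of them. *Glul* encodes glutamine synthetase, which joins glutamate and ammonia to glutamine, and was measured at 384, 489, 388 and 473 CPM in WT 1 to 4 and 281, 297 and 284 CPM in KO 2 to 4. The KO values were all below the WT values, and the log2 fold change, KO against WT, was −0.59 (SE 0.10). *Gpt2* encodes the mitochondrial alanine aminotransferase, which links alanine and glutamate to pyruvate and 2-oxoglutarate. Its level was 102, 138, 109 and 117 CPM in WT and 37.7, 53.5 and 55.3 CPM in KO. The gap between the lowest WT and the highest KO library, 47 CPM, was about the size of the whole KO mean of 48.8 CPM, and the log2 fold change was −1.26 (SE 0.15). *Abhd2* encodes a serine hydrolase that cleaves acylglycerols and is known from sperm as a membrane target of progesterone. It was measured at 474, 729.8, 471 and 736 CPM in WT and at 323, 322 and 367 CPM in KO. WT 2 and WT 4 stood well above WT 1 and WT 3, but the KO libraries were below all of them, with a log2 fold change of −0.84 (SE 0.18).

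Of the 3 genes of the cytoskeleton and of cell contacts, *Jcad* was the most clearly separated and *Pdlim4* and *Amigo2* the least. *Jcad* encodes a protein of endothelial cell junctions, and its level was 103, 123, 97.9 and 122 CPM in WT and 67.6, 67.7 and 76.1 CPM in KO, a log2 fold change of −0.66 (SE 0.09). *Pdlim4* encodes a PDZ and LIM domain protein that binds alpha-actinin and actin stress fibres. It was measured at 35.3, 54.1, 45.7 and 65.3 CPM in WT and at 31.8, 28.7 and 36.2 CPM in KO. It was the only gene of the 10 whose groups overlapped in CPM, since WT 1 lay 0.91 CPM below KO 4, and its log2 fold change was −0.64 (SE 0.19). *Amigo2* encodes a transmembrane adhesion protein with leucine-rich repeats and an immunoglobulin domain, and was measured at 16.4, 25.1, 16.9 and 23.6 CPM in WT and 14.5, 15.8 and 15.1 CPM in KO. Only 0.637 CPM separated its lowest WT from its highest KO library, and its log2 fold change of −0.44 (SE 0.15) was the smallest of the 10. In TPM its groups overlapped, with the lowest WT library at 8.25 TPM and the highest KO library at 8.84 TPM.

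The genes for the small GTPase and the cofactor had large fold changes at low levels. *Arl4d* encodes a GTPase of the ADP-ribosylation factor family that acts at the plasma membrane on actin and membrane traffic. It was measured at 5.82, 11.2, 8.23 and 9.87 CPM in WT and at 2.92, 4.25 and 3.97 CPM in KO. WT 1 was the lowest WT library and still lay 1.57 CPM above the highest KO library, and the log2 fold change was −1.24 (SE 0.23). *Cited1* encodes a coactivator that does not bind DNA itself and works through CBP and p300. Its level was 7.65, 11, 12.5 and 24.8 CPM in WT and 5.09, 6.0 and 6.12 CPM in KO. The WT libraries varied 3.24-fold from lowest to highest, against 1.2-fold in KO, and the log2 fold change of −1.29 (SE 0.35) had the largest error of the 10. Without WT 4 it was −0.85.

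The remaining 2 genes encode membrane proteins. *Susd3*, named for its sushi domain, was the most even across replicates, at 66.4, 67.6, 69.9 and 71.3 CPM in WT and 43.4, 43.0 and 49.9 CPM in KO. The WT libraries differed by 1.07-fold at most and the log2 fold change was −0.60 (SE 0.07). *Tmem144* encodes a protein predicted to span the membrane several times and was the least abundant of the 10 in TPM. It was measured at 6.48, 8.60, 7.49 and 8.25 CPM in WT and at 3.68, 4.79 and 4.47 CPM in KO, a log2 fold change of −0.84 (SE 0.14) with no overlap.

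**Figure D1:**
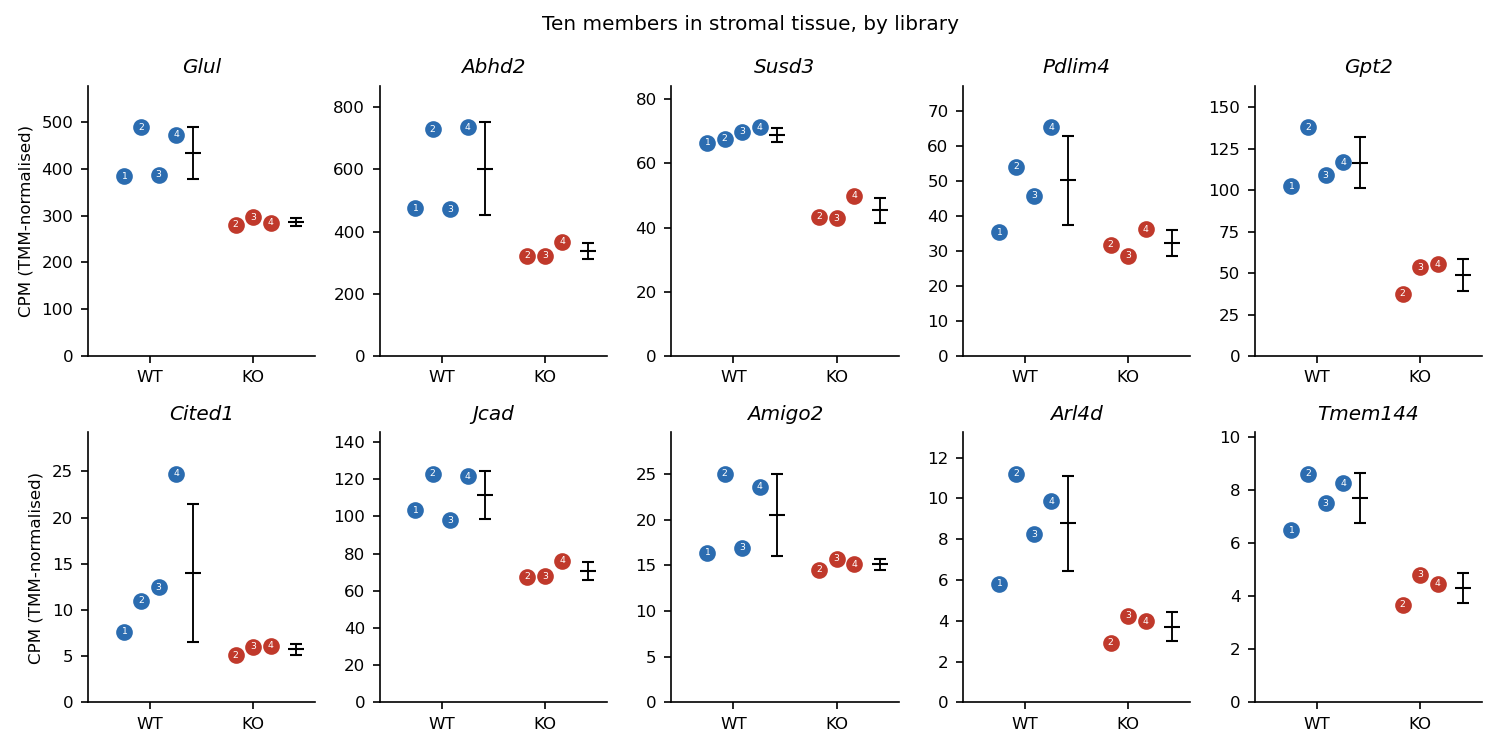
Each panel plots 1 gene in TMM-normalised CPM, with WT libraries in blue and KO libraries in red numbered by replicate, and the bar beside each group gives the mean and SD (n = 4 and 3). KO points lie below all WT points in 9 panels, and in the *Pdlim4* panel WT 1 at 35.3 CPM lies below KO 4 at 36.2 CPM.

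In CPM, the KO libraries were all below the WT libraries for 9 of the 10 genes and for 5.12% of all tested genes (3.93% had them all above). The median log2 fold change was −0.75 for the 10 genes and −0.00 for all tested genes. A log2 fold change of −0.5 or lower was found for 9 of the 10, all but *Amigo2*, and for 3.32% of tested genes. A gene was called where its log2 fold change was 0.5 or more in size and its adjusted p was 0.05 or less. With these limits edgeR's quasi-likelihood test called 0 of the 10, and it called 0.0104% of all tested genes (2 genes), 0.0052% of them as lower (1 gene). Among the edgeR alternatives, 6 of the 10 were called without a filter on low counts, 2 each with legacy=FALSE, with at least 10 counts in every library and with the replicate block, and 1 without KO 4. DESeq2 called 8 of the 10, all but *Cited1* and *Amigo2*, and it called 0.754% of tested genes in either direction and 0.447% as lower. These counts, like that of the libraries without overlap, follow from how the genes were picked, and nothing is read from them. In a bulk sample, fewer cells of a type and less RNA per cell cannot be told apart, and this holds for each of these genes.

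Levels per transcript length set the genes in an order. In WT the mean was 251 ± 40.6 TPM for *Glul* (SD, n = 4), 133 ± 37.2 for *Abhd2*, 83.9 ± 6.26 for *Susd3*, 74.6 ± 21.2 for *Pdlim4* and 52.8 ± 9.28 for *Gpt2*. Lower in the order stood *Cited1* at 29.2 ± 16 TPM, *Jcad* at 24.8 ± 3.59, *Amigo2* at 11.2 ± 2.81, *Arl4d* at 10.9 ± 3.24 and *Tmem144* at 4.97 ± 0.805. The WT ranges of neighbours overlapped from *Susd3* down to *Jcad* and between *Amigo2* and *Arl4d*, so the order within these stretches is not resolved. *Glul*, *Abhd2* and the stretch that starts with *Susd3* did not overlap, and neither did *Jcad* with *Amigo2* or *Arl4d* with *Tmem144*. In KO the levels ran from 162 to 176 TPM for *Glul* down to 2.54 to 3.23 TPM for *Tmem144*. *Gpt2* at 16.6 to 27.2 TPM lay below *Pdlim4* at 43.3 to 58.0 TPM without overlap in KO, whereas their WT ranges overlapped.

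A single transcript carried most of the reads of 9 of the genes, between 90.0% of the WT mean for *Susd3* and 100% for *Arl4d*, and the share in KO departed most from that in WT for *Cited1* (94.1% and 91.5%). *Amigo2* was the exception. Its transcripts 201 and 202 shared the reads, with 201 at 53.1% in WT (46.1% to 58.0% by library) and 46.9% in KO (38.1% to 54.8%). These shares overlap between the groups. *Amigo2*, on the minus strand at chr15:97142006-97145196 of GRCm39, lies wholly inside *Pced1b* on the plus strand, over 3191 bases. *Pced1b*, also in the granulosa list, had a mean of 12.1 TPM in WT and 11.1 TPM in KO and a log2 fold change of −0.17 (SE 0.13). The library kit keeps strand, but the counting setting was not given in the sources used here, so the value of *Amigo2* is the least certain of the 10 on this ground. The other overlapping genes were at 0.478 TPM or less.

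The bases before the start of the most-read transcript were read from GRCm39 for the 10 genes, to see which sequence motifs genes that differ together have in common. The windows searched ran from 250 bases before to 50 bases after the start, on both strands, also for all tested protein-coding genes with such a start (15704 promoters). The palindrome ACANNNTGT, the core of the element that PGR shares with the glucocorticoid receptor, was found in 1 of 10 windows, that of *Glul*, and in 5.04% of all. The cyclic AMP response element TGACGTCA was found in 2 of 10, those of *Arl4d* and *Tmem144*, and in 2.62% of all promoters and 0.704% of the 142 promoters of the rest of the granulosa list. Its half-site TGACG, which lies inside TGACGTCA on both strands, was found in 4 of 10 (*Gpt2* and *Abhd2* besides these) and in 25.9% of all. The PGR half-site AGAACA (14.1% of all), the AP-1 motif TGANTCA (5.93%) and the RUNX motif TGTGGT (13.9%) were in none of the 10 windows. The last 120 bases before the start are shown for the 4 genes that carry the full palindromes or, for *Gpt2*, the widest gap between the groups relative to the KO mean, from chr1:153775570-153775689 (plus strand), chr11:101556247-101556366 (plus strand), chr3:79750047-79750166 (minus strand) and chr8:86218868-86218987 (plus strand), each 5′ to 3′ on the strand of the gene. Capitals mark ACANNNTGT in *Glul*, TGACGTCA in *Arl4d* and *Tmem144*, and the reverse complement of TGACG in *Gpt2*.
Glul: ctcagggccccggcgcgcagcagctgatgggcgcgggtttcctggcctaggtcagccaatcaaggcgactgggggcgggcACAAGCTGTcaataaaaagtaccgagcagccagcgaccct
Arl4d: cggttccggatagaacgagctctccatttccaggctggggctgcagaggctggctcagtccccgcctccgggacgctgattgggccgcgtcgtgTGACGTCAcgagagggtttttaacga
Tmem144: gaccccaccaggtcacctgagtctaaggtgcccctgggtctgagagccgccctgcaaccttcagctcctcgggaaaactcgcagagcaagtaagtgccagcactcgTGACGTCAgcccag
Gpt2: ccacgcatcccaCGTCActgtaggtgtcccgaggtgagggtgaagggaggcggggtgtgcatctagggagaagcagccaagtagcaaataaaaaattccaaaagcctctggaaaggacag
The matches begin at −40 in *Glul*, −26 in *Arl4d*, −14 in *Tmem144* and −108 in *Gpt2*, counted from the transcript start. A match is a run of letters and not evidence of binding, and elements at a distance from the start were not searched.

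The rest of the granulosa list tells how the 10 genes stand among its other genes. It was drawn up from granulosa cell libraries, and whether those came from the same mice is not given in the sources used here. Of the 144 other genes, 143 were found and tested, 115 lower and 28 higher in KO stroma. The 119 of these listed as lower in KO granulosa cells had a median log2 fold change of −0.32 in the stroma, with 114 lower and 5 higher. Of them 71 (59.7%) had an unadjusted p under 0.05 and were lower in edgeR's test, against 5.1% of all tested genes, and 51 (42.9%) had all KO libraries below all WT libraries, against 5.12%. The 24 listed as higher in KO granulosa cells had a median of 0.33, with 23 higher and 1 lower, and 12 reached an unadjusted p under 0.05, all higher, against 3.84% of all tested genes. With the limits given above, edgeR called 0 of the 143, and DESeq2 called 15 lower and 5 higher, against 0.447% and 0.307% of all tested genes.

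The 10 genes are not the lowest of the list. By rank of the stromal log2 fold change, *Cited1*, *Gpt2* and *Arl4d* held ranks 3 to 5 of 153, *Abhd2* and *Tmem144* 13 and 14, *Jcad* 20, *Pdlim4* 23, *Susd3* 26, *Glul* 28 and *Amigo2* 47. The lowest genes besides them were *Myh13*, a myosin heavy chain gene (−2.08, SE 0.60, adjusted p = 0.35 in edgeR and 0.0247 in DESeq2, WT mean 1.13 CPM), and *Zbtb16*, a zinc finger transcription factor gene (−1.45, SE 0.25, 0.16 and 9.46e-07). *Havcr2* (−1.23), *Apol6* (−1.22) and *Ldhd*, the gene for D-lactate dehydrogenase (−1.06), followed. *Ldhd* was measured at 9.40, 14.2, 10.9 and 13.9 CPM in WT and 6.08, 5.88 and 5.45 CPM in KO without overlap, with an adjusted p of 0.102 in edgeR and 1.28e-07 in DESeq2. At the other end stood *Sfrp2*, which encodes a secreted modulator of WNT signalling, at 15.1, 15.4, 12.2 and 15.6 CPM in WT and 60.6, 30.7 and 46.4 CPM in KO (1.65, SE 0.20, adjusted p = 0.0544 in edgeR and 2.35e-13 in DESeq2). *Rprm* (1.24), *Avil* (0.73) and *Egln3* (0.61) were also among the highest, all listed as higher in KO granulosa cells too.

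**Figure D2:**
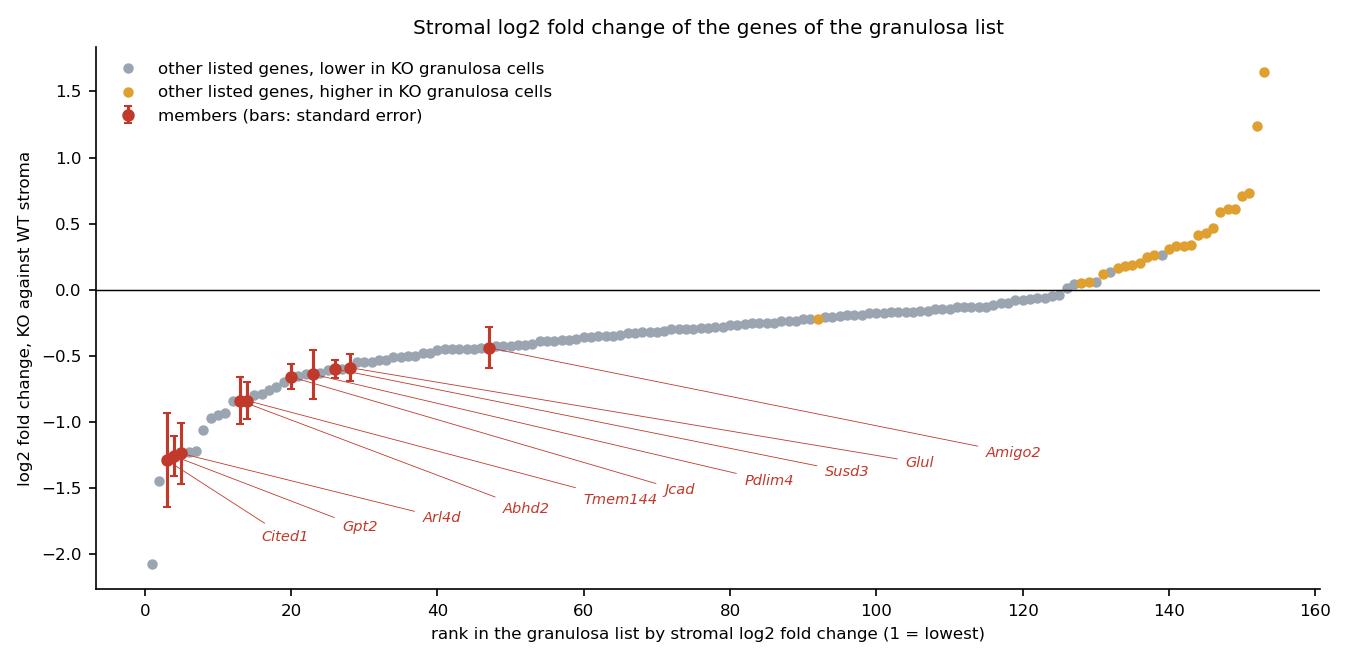
The x axis ranks the 153 tested genes of the granulosa list by their stromal log2 fold change, KO against WT, which is on the y axis, with the 10 genes described here in red with standard errors and the others coloured by their listed direction in KO granulosa cells. The red points lie between ranks 3 and 47, and the genes listed as higher lie at the right end but for 1 at −0.22.

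Because granulosa cell RNA remained in the tissue, the granulosa markers were set beside the 10 genes. The 15 markers, none of them in the granulosa list, summed to 4140, 3390, 4190 and 3100 TPM in WT 1 to 4 and to 3820, 3850 and 5050 TPM in KO 2 to 4. The ranges overlapped, and the log2 ratio of KO to WT was 0.19 (2-sided exact permutation test over 35 splits, p = 0.314, adjusted p = 0.603 over 10 marker lists). The smallest p that 4 against 3 libraries allow is 0.0286. Of the 15 markers 6 were lower and 9 higher, from −0.15 for *Nr0b1* to 0.58 for *Inhbb*, and none had an unadjusted p under 0.05 in edgeR, whose lowest adjusted p among them was 0.568, or was called by DESeq2. *Inha* was measured at 2194, 1530, 2011 and 1436 CPM in WT and 1847, 1913 and 2203 CPM in KO, and *Cyp19a1*, which encodes the aromatase of oestrogen synthesis, at 76.4, 28.5, 55.9 and 17.2 CPM in WT and 24.5, 42.7 and 55.9 CPM in KO. The 13 cumulus and LH-induced granulosa genes had a median log2 fold change of 0.01. The mean summed level of the granulosa markers was thus higher in KO, by less than the spread between replicates, where the 10 genes were lower. With the mean log2 CPM of the markers as a covariate in the fit, the 10 log2 fold changes ran from −1.23 (*Gpt2*) to −0.30 (*Amigo2*), with a median of −0.65. Since granulosa cells left in a KO ovary lack PGR as well, lower levels in them and lower levels in the stroma proper cannot be told apart in this tissue. Granulosa cell libraries were not analysed here.

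Of the other cell types, the 10 smooth muscle and pericyte markers summed to 1760 to 2100 TPM in WT and 1290 to 1720 TPM in KO without overlap (log2 ratio −0.35, exact permutation p = 0.0571, adjusted p = 0.477). *Des* (−0.78, SE 0.15) and *Cnn1* (−0.70, SE 0.15), genes for muscle desmin and calponin, were called by DESeq2, with adjusted p of 0.000317 and 0.00211, and had an adjusted p of 0.186 and 0.236 in edgeR. The other 8 lists overlapped between the genotypes, with exact permutation p from 0.114 to 0.857. Their log2 ratios were −0.22 for theca, −0.05 for endothelial, 0.02 for fibroblast, 0.11 for leukocyte, −0.33 for surface epithelium, 0.33 for oocyte, 0.22 for red blood cell markers and −0.10 for the cumulus and LH-induced genes. Most of the sum of the last list was *Cyp11a1*, which is also among the theca markers. No marker was at 0 in every library. The 12 endothelial markers, which bear on *Jcad*, summed to 674 to 785 TPM in WT and 696 to 747 TPM in KO. Gene by gene, 11 of them were lower in KO and 1 higher, with a median log2 fold change of −0.14. An unadjusted p under 0.05 in edgeR was reached by 3 of the 12, all lower, against 5.1% of all tested genes. Of the smooth muscle and pericyte markers 9 were lower and 1 higher, and 6 of the 10 had such a p, all lower. Of the theca markers 10 were lower and 1 higher, and 2 of the 11 had such a p, both lower. All 11 oocyte markers were higher in KO, 6 of them with an unadjusted p under 0.05, against 3.84% of all tested genes. Of the 10 surface epithelium markers 8 were lower and 2 higher, with a median log2 fold change of −0.49. A log2 fold change of −0.5 or lower was found for 5 of them, against 3.32% of all tested genes, and 2 had such a p, both lower. In these other 8 lists edgeR called no gene. DESeq2 called 1, a surface epithelium marker that was lower, against 0.447% of all tested genes called as lower. The part that these cell types have in the difference of the 10 genes was not tested.

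**Figure D3:**
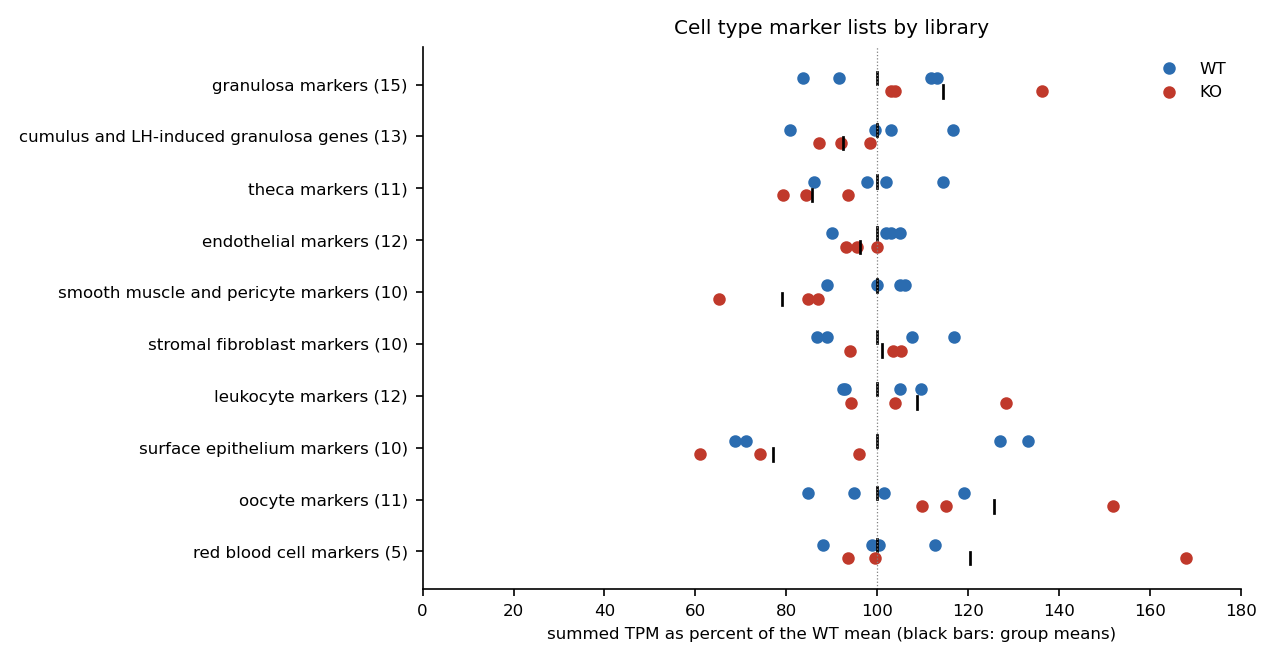
The x axis gives the summed TPM of each marker list as percent of its WT mean, with WT libraries in blue, KO libraries in red and black bars at group means. The granulosa markers of KO lie within or above the WT range, and the smooth muscle and pericyte markers are the only list whose groups do not overlap.

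The WT libraries themselves differed, and in the 10 genes they differed in the same way. WT 2 and WT 4 were both above WT 1 and WT 3 for 8 of the 10 genes, all but *Susd3* and *Cited1*, and for 22.0% of all tested genes. This pattern was seen in the values and not looked for beforehand. As a percent of each gene's WT mean, the median of the 10 genes was 82.0%, 112%, 90.3% and 110% in WT 1 to 4 and 57.1%, 59.0% and 63.2% in KO 2 to 4. The medians of the granulosa markers went the other way, at 110%, 91.4%, 109% and 87.1% in WT and 97.1%, 99.3% and 118% in KO. The markers were not uniform, since *Foxl2*, *Nr5a2*, *Kctd14* and *Slc18a2* were highest in WT 4, at 106%, 124%, 129% and 122%. For 9 of the 15 markers WT 2 and WT 4 were both below WT 1 and WT 3, as for 22.1% of all tested genes, and for 0 both were above. The surface epithelium markers, low in all libraries, followed the 10 genes within WT, with summed TPM of 31.8, 61.6, 32.9 and 58.7 in WT and 44.4, 28.2 and 34.3 in KO. The sum of the cumulus and LH-induced granulosa genes also had WT 2 and WT 4 above WT 1 and WT 3, with 4500, 5730, 5540 and 6500 TPM in WT and 4850, 5120 and 5480 TPM in KO. Most of this sum was *Cyp11a1*, which is also in the theca list, at 3693, 4707, 4664 and 5606 TPM in WT and 3856, 4166 and 4590 TPM in KO. The fibroblast markers ran the other way, at 6430, 4900, 5920 and 4770 TPM in WT, as did the smooth muscle and pericyte markers, at 2080, 1760, 2100 and 1980 TPM. The part of these cell types in the pattern was not tested. From lowest to highest WT library, the 10 genes varied by a median of 1.44-fold, the granulosa markers by 1.53-fold and all tested genes by 1.25-fold.

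**Figure D4:**
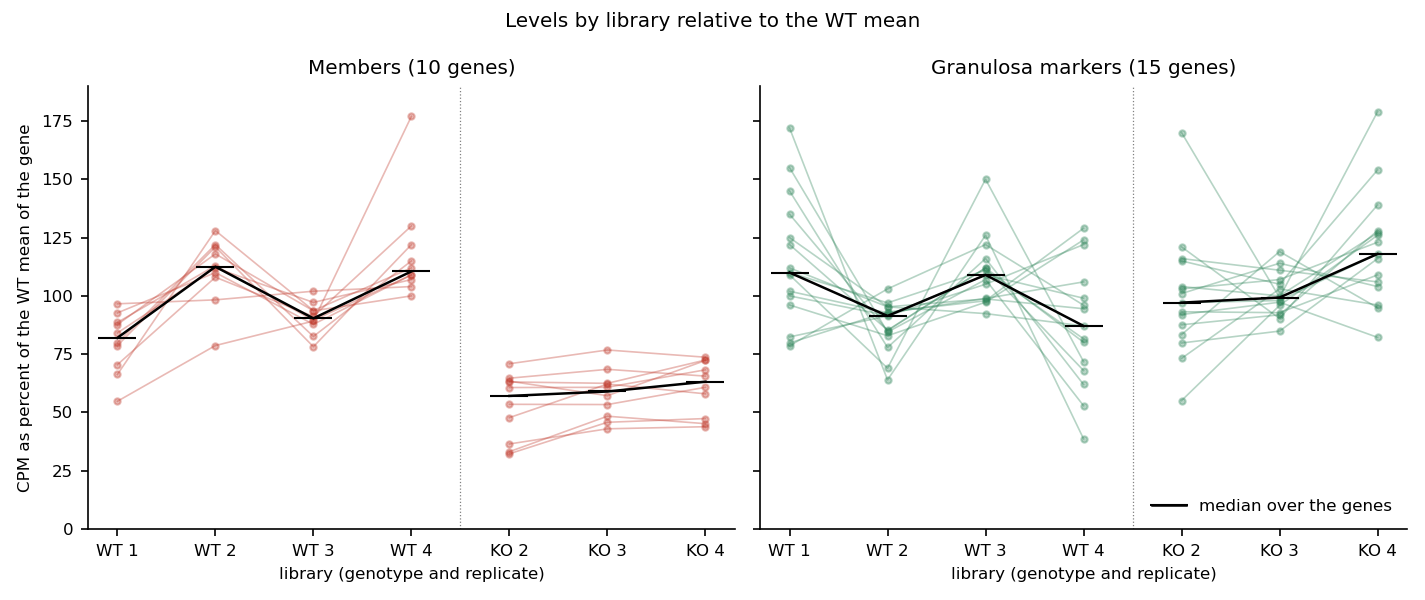
Each thin line is 1 gene, with its CPM in each library as percent of its own WT mean on the y axis, for the 10 genes (left) and the 15 granulosa markers (right), and black lines join the medians. The medians of the 10 genes are highest in WT 2 and WT 4, and those of the markers are lowest there.

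After the mean of each genotype was taken off, the log2 CPM of the 10 genes still varied together. All 45 pairs had a positive correlation over the 7 libraries, with a median r of 0.63 and a range of 0.06 (*Susd3* with *Glul*) to 1.0 (*Amigo2* with *Glul*). *Abhd2* and *Jcad* had an r of 0.96 and *Arl4d* and *Tmem144* of 0.98. Between the 10 genes and the 15 granulosa markers 56 of 150 pairs were positive, with a median r of −0.30 and a range of −0.9 to 0.98. The points of each r are the same 7 libraries, which share their depth, scaling and cell make-up, so these are descriptions. The pairs are not independent, and the share of positive pairs over all tested genes was not computed.

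*Gpt2* and *Glul* belong to the exchange of glutamate, glutamine and alanine, and the other 18 genes of a list of enzymes and carriers of this exchange were set beside them. Of these 18, 13 were lower and 5 higher, with a median log2 fold change of −0.08 against −0.00 for all tested genes. An unadjusted p under 0.05 was reached by 3 lower and 1 higher, and edgeR called 0. The cytosolic isozyme gene *Gpt* had a log2 fold change of 0.26 (SE 0.17), the glutamate dehydrogenase gene *Glud1* of −0.04 (SE 0.05), and the aspartate aminotransferase genes *Got1* and *Got2* of 0.23 (SE 0.11) and −0.11 (SE 0.07). *Slc7a11*, the gene for the cystine and glutamate exchanger, was the lowest of the 18, at 84.0, 98.8, 76.3 and 67.2 CPM in WT and 33.3, 48.0 and 60 CPM in KO (−0.79, SE 0.19, adjusted p = 0.285 in edgeR). DESeq2 called it, as the only one of the 18, with an adjusted p of 0.00587. *Gls2* was the next lowest (−0.60, SE 0.255, adjusted p = 0.537 in edgeR and 0.357 in DESeq2), with no overlap and with WT 4 far above the other WT libraries, at 2.98, 3.28, 2.94 and 5.72 CPM in WT and 2.45, 2.86 and 2.11 CPM in KO. *Slc7a11* and *Gclc* (−0.22, SE 0.08), for the ligase that starts glutathione synthesis, stand in the granulosa list too, as does *Gldc* (−0.05). The glutamine carrier gene *Slc38a2* was higher, with 428 ± 21.8 CPM in WT (SD, n = 4) and 492 ± 6.72 CPM in KO (SD, n = 3), a log2 fold change of 0.20 (SE 0.06, adjusted p = 0.374 in edgeR and 0.055 in DESeq2).

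Relatives of the 10 genes by family or name gave a second comparison. None was listed for *Jcad* and *Tmem144*, and none at 1 TPM or more for *Glul*. Of the 20 listed, 18 had a mean of at least 1 TPM, and of these 11 were lower and 7 higher, with a median log2 fold change of −0.05. *Pdlim3*, for an actinin-binding protein of muscle, was the exception, at 29.0, 15.4, 25.5 and 17.2 CPM in WT and 7.99, 13.2 and 12.3 CPM in KO (−0.97, SE 0.25, adjusted p = 0.314 in edgeR and 0.00701 in DESeq2). Unlike *Pdlim4*, it was higher in WT 1 and WT 3 than in WT 2 and WT 4. *Pdlim1*, which is in the granulosa list, was the other gene with an unadjusted p under 0.05 (−0.26, SE 0.09, adjusted p = 0.449 in edgeR). *Pdlim2* (−0.31), *Pdlim5* (−0.21) and *Pdlim7* (−0.04) had smaller values. *Cited2*, far more abundant than *Cited1* at a WT mean of 186 TPM, had a log2 fold change of −0.02 (SE 0.10), and *Cited4* one of 0.61 (SE 0.31, adjusted p = 0.608 in edgeR), the direction in which it is listed in KO granulosa cells. *Arl4a* (0.03) and *Arl4c* (0.21), *Abhd1* (−0.12) and *Abhd3* (−0.14), *Amigo1* (0.04) and *Amigo3* (−0.05), and *Susd1* (0.21), *Susd2* (−0.36), *Susd4* (−0.09) and *Susd6* (0.09) all had an unadjusted p above 0.05.

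**Figure D5:**
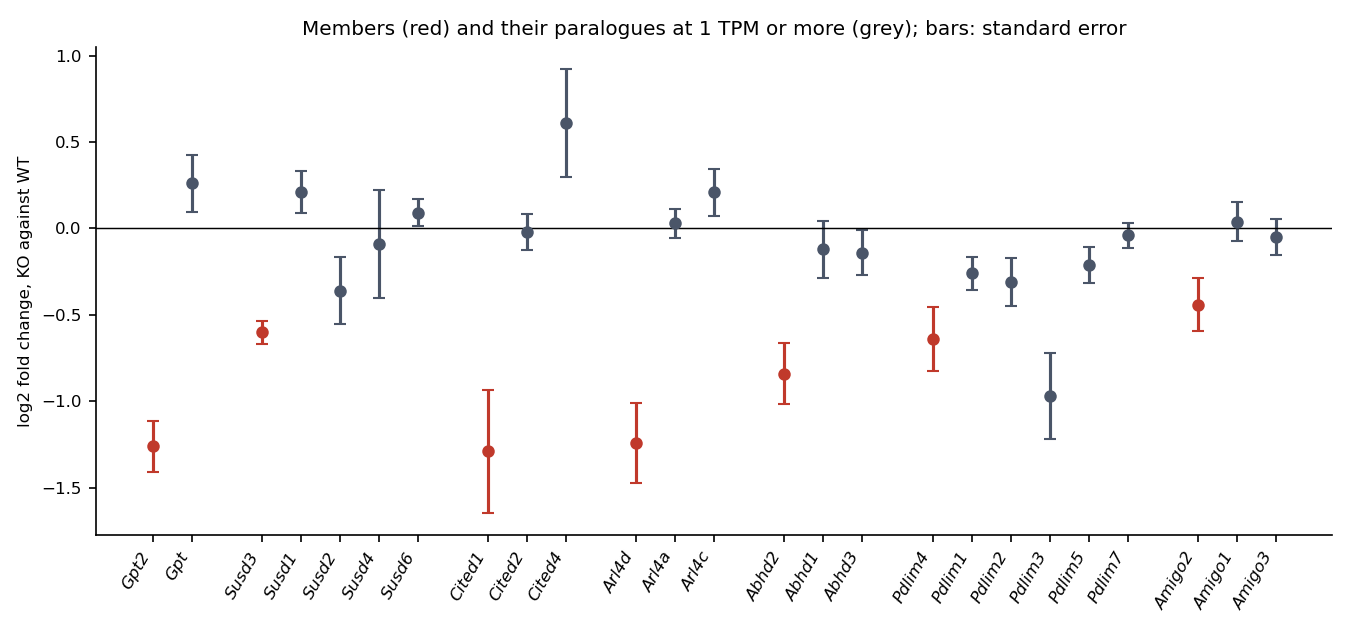
The y axis gives the log2 fold change, KO against WT, with its standard error, for 7 of the 10 genes (red) and their paralogues with a mean of at least 1 TPM (grey), grouped by family on the x axis. Apart from *Pdlim3* at −0.97, each paralogue lies above the red point of its family.

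Besides the 10, the genes most like the mean pattern of the 10 over the 7 libraries, among 14874 genes with a mean of at least 1 CPM, were *Dmd*, the dystrophin gene (Pearson r 0.994, log2 fold change −0.35), *Zbtb16* (0.992, −1.45), *Mid1* (0.987, −0.28), *Gm4631* (0.982, −0.15) and *Top1*, for DNA topoisomerase I (0.982, −0.21). *Dmd* and *Zbtb16* are in the granulosa list. With the genotype means taken off, the nearest were *Pitrm1* (r 0.994), *Arap2* (0.993), *Scp2* (0.991), *Pparg* (0.987) and *Pacsin1* (0.987). Of these *Pparg*, which encodes a nuclear receptor of lipid metabolism and is in the granulosa list, had a log2 fold change of −0.60 (SE 0.17, adjusted p = 0.33 in edgeR), and *Pacsin1* one of 0.47. Each r rests on 7 libraries and was picked as the highest of many.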

How the data were processed

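Stromal RNA of 4 WT and 3 KO libraries was compared. The authors made stranded mRNA libraries, sequenced them as read pairs, quantified them with Salmon (version not given in the sources used here) on the GENCODE M26 mouse transcriptome (GRCm39), and deposited expected counts, TPM and effective lengths per transcript. The deposited TPM were summed per gene, and the expected counts were summed and rounded, with GENCODE M39 (98.81% of transcripts and at least 99.37% of reads matched). Counts of 47.4 to 63.4 M per library were tested with edgeR 4.0.16 in R 4.3.3 (TMM, filterByExpr, glmQLFit, glmQLFTest), with Benjamini–Hochberg adjustment over 19233 genes and a biological coefficient of variation of 0.127. The code was tested on simulated data. Alternatives were DESeq2 1.42.0, limma-voom (limma 3.58.1), median-of-ratios scaling, other filters, length offsets, a replicate block, a granulosa marker covariate and leaving out each library.

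The 10 genes and all lists were chosen with earlier results of these data known. Named genes are these 10, *Pgr*, the granulosa markers, the enzymes and carriers, paralogues at 1 TPM or more, the 5 lowest and 5 highest others of the granulosa list and the 5 genes most like the 10 by each measure, except for genes that are not reported here. *Pced1b*, *Des*, *Cnn1* and *Cyp11a1* were named after their values were seen. *Palm2*, 1 gene of the granulosa list, found no match. Replicates are pools of different mice.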

Additional observations from a re-analysis of the deposited data

Results flagged for a closer look

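Among 70 measures checked (*Pgr*, the 10 genes, the granulosa markers, the paralogues and the enzymes and carriers with a mean of at least 1 TPM, and the 10 marker sums), 3 had a WT library that stood apart from the other 3 WT libraries by more than Dixon's critical value, and chance flags about 1 in 20. All 3 were in WT 4. *Cited4* was at 43.48 CPM there, against 19.73 to 22.35 CPM in the other WT libraries, and the KO libraries held 46.7, 25.3 and 50.1 CPM, so WT 4 lay within the KO range. *Gls2*, from the list of enzymes and carriers, was at 5.723 CPM against 2.944 to 3.279 CPM. *Slc38a1*, for a glutamine carrier, was at 114.1 CPM against 92.99 to 94.91 CPM. None of the 10 genes was among them.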

How the results depend on the processing

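All 160 values of the 10 genes under 16 alternatives stayed negative, from −1.48 to −0.30. Some moved by more than the SE of the reported value, such as *Cited1*, from −1.29 (SE 0.35) to −0.85 without WT 4. The number of genes called among all tested moved from 2 to 145 with DESeq2, 7 with legacy=FALSE, 36 without a filter on low counts, 6 with at least 10 counts in every library, 5 with the granulosa marker covariate, and 1 to 4 when each library was left out (1 without WT 3 or KO 2, 4 without WT 4). Of the 10 genes, 0 to 8 were called, with the most in DESeq2. The count over all genes stayed at 2 with median-of-ratios scaling, limma-voom and length offsets. The cause of these changes was not tested. The 71 other listed genes with an unadjusted p under 0.05 and lower in KO became 62 to 86 under the other alternatives and 50 to 77 when a library was left out. The log2 ratio of the granulosa marker sum was 0.13 to 0.25 under alternatives and 0.06 to 0.26 without single libraries.

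Same-numbered libraries came from different mice, and their deviations from the group means correlated by −0.02, 0.101 and 0.078. No pairing by number was thus seen over all genes. These values cannot exclude one, since what a number stands for is not given in the sources used here. With a replicate block edgeR called 26 genes, 20 lower and 6 higher, the other listed genes numbered 86 and the marker ratio was 0.25. The lowest depth among the 10 genes was 168 estimated reads, for *Arl4d* in KO 2. With 4 against 3 libraries, this depth adds less error than the replicates do. Genes named here at lower levels, such as *Myh13*, are not covered by this.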
